A study of Mus musculus with 8 samples.

Results

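The genes described here encode the ADAMTS proteinases, the ADAMTS-like proteins, the matrix metalloproteinases (MMPs) and the TIMPs, which are natural inhibitors of metalloproteinases. Members were all protein-coding genes of the count tables whose symbol begins with Adamts, with Mmp and a digit, or with Timp and a digit, and Adamts1 was left out by this rule. This gave 50 of 41591 genes, made up of 18 ADAMTS proteinases, 5 ADAMTS-like genes, 23 MMPs and 4 TIMPs. The rule used names only, but it was set with earlier results of these data known. Of the 50, 42 passed the filter on low counts and were tested. The other 8 (Adamts13, Adamts18, Mmp1a, Mmp1b, Mmp7, Mmp10, Mmp20 and Mmp21) held 0 to 131 counts over all libraries.

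RNA was sequenced from whole ovaries of 8 female C57BL/6 mice about 3 weeks old. In 4 of them, named DKO here, both Insr, which encodes the receptor for insulin, and Igf1r, which encodes the receptor for IGF1, were conditionally deleted. The 4 controls were littermates, labelled wild-type and positive for Pgr-Cre, in which the gene of the progesterone receptor drives Cre, while the label of the DKO group names no driver. Follicle growth was induced in all mice with 4 IU of eCG, an equine gonadotropin, and ovulation with 5 IU of hCG, the human one, given 48 h after it. Ovaries were collected 12 h after hCG, near ovulation, and no ovary from before hCG was analysed here. Pgr is known to be active in granulosa cells of ovulatory follicles, and a whole ovary also holds cell types in which Cre driven by it would not act. Whether a library held RNA of 1 ovary or of a pair is not given in the sources used here. In such bulk samples, fewer cells of a type and less RNA per cell cannot be told apart.

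MMPs and ADAMTS enzymes are zinc-dependent proteinases that cut collagens, proteoglycans and other matrix proteins. They are made as inactive precursors, opened by furin-like convertases or by other proteinases, and blocked by TIMPs, which bind the active site. At ovulation the follicle wall has to be opened and the matrix around the oocyte remodelled, and afterwards the wall is rebuilt into a corpus luteum. ADAMTS-like proteins have no proteinase domain and bind to matrix, chiefly to fibrillin microfibrils.

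The libraries held 33145056 to 39257648 counts in genes, and 44 to 48 members had a count above 0 in each. Levels are CPM, that is counts scaled to a common library size with TMM factors, and comparisons between genes use CPM per kb of exon length. Control 1 and DKO 2 stood apart in RNA of the oviduct. The oviduct glycoprotein gene Ovgp1 was at 1147 and 724 CPM in them and at 2.51 to 23.8 in the other 6 libraries. The 5 markers of mesothelium and surface epithelium summed to 632 and 383 CPM in these libraries and to 112 to 186 in the others. The sample titles end in a number, and control 1, DKO 1 and DKO 2 carry the 3 lowest, set apart from the other 5 by a gap. A smaller gap sets control 1 apart from DKO 1 and DKO 2. The low-numbered libraries thus include control 1 and DKO 2, both high in oviduct RNA, and control 1 is their only control. The labels do not say what the title numbers are. Beside genotype, 8.16% of all genes tested differed between the low-numbered and high-numbered libraries, and the part of oviduct RNA in this was not tested. Results are therefore also given with this split as a block, within the 5 high-numbered libraries (2 DKO, 3 controls), or without control 1 and DKO 2, where that matters. Insr averaged 155 ± 10.3 CPM over controls and 126 ± 16.8 CPM over DKO (± SD, 4 libraries each, exact two-sided permutation p = 0.0571), and Igf1r 236 ± 28.6 and 214 ± 22.4 CPM (exact permutation p = 0.371). Counts over whole genes cannot show a deleted exon, so they check the genotype labels weakly.

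The order of levels was headed by an inhibitor. Timp1 was at 852 ± 439 CPM per kb in controls and 462 ± 159 in DKO, which was 39.7% to 71.8% of the summed level per kb of all 50 members in control libraries and 30.5% to 51.9% in DKO libraries. Mmp11, known as stromelysin 3, came next at 86.01 ± 13.3 and 91.8 ± 27.1 CPM per kb, and Mmp14, a membrane-anchored collagenase that also activates Mmp2, at 89.1 ± 9.96 and 78.4 ± 3.88. Timp2 (64.2 ± 11.7 and 56.6 ± 4.79), Timp3 (53.7 ± 6.08 and 62.4 ± 6.54) and the gelatinase gene Mmp2 (43.1 ± 7.17 and 46.1 ± 7.02 CPM per kb) completed the 6 highest by the mean over all libraries. In controls alone, the means of Adamts4 (49.0 ± 15.5) and Mmp19 (43.3 ± 11.6 CPM per kb) also lay above that of Mmp2, by less than their SD. In controls Mmp11 and Mmp14 differed by less than the SD of either gene, while Timp2 lay below Mmp11 by more than the SD of either. In all, 13 members reached a mean of 10 CPM per kb over the 8 libraries, 11 lay from 1 to 10, and 24 lay under 1 with some counts. Mmp1a and Mmp20, the latter an enzyme of tooth enamel, had 0 counts in all 8 libraries. A level too low to be counted at this depth would look the same.

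**Figure D1:**
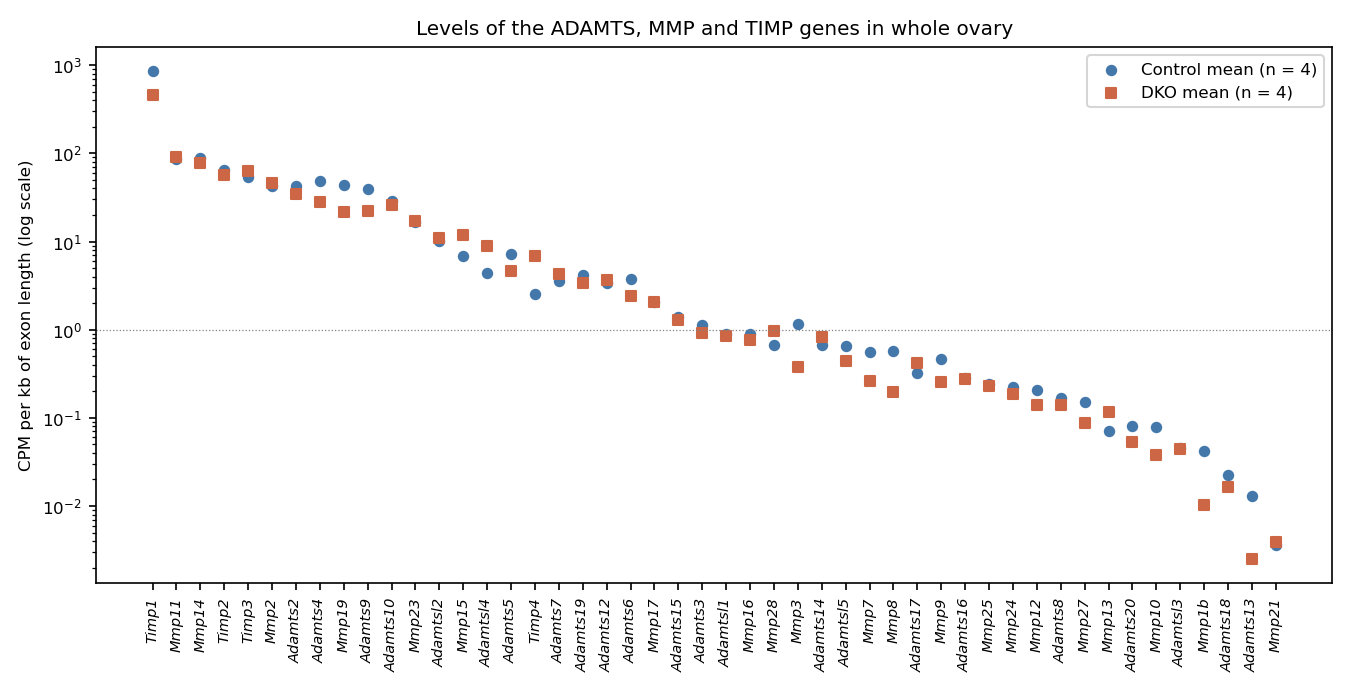
Mean level of the 48 members with any count, in CPM per kb of exon length on a log axis, in controls (circles) and DKO (squares), n = 4 each, ordered by the mean of all libraries. Timp1 lies near 852 in controls and 462 in DKO, 13 members have a mean over all libraries of 10 or more, and the dotted line marks 1. A group mean of 0 is not drawn.

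Between genotypes, 1 of the 42 members tested passed edgeR's quasi-likelihood test at an adjusted p of 0.05. This was the membrane-type proteinase gene Mmp15, which rose in DKO (2.38% of members, beside 1.26% of all 16870 genes tested and 0.759% called higher). No member was called lower (0.498% of all genes were), and 28 of 42 lay below 0 (66.7%, beside 53.1% of all genes). The members' median log2 fold change, DKO over control, was -0.18, and that of all genes -0.021. An unadjusted p under 0.05 was reached by 11 members, 3 higher and 8 lower (26.2%, beside 15.4% of all genes, 8.43% higher and 6.98% lower). The groups did not overlap in 7 members, 3 higher and 4 lower (16.7%, beside 9.24% of all genes, 5.7% higher and 3.54% lower). DESeq2 called 5 members, Mmp15 and Adamtsl4 higher and Mmp3, Mmp19 and Adamts6 lower, where it called 7.19% of all genes. With limma-voom and sample quality weights 8 members were called, the same 5 and Adamts2, Adamts5 and Adamts19 lower, where 9.79% of all genes were called.

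**Figure D2:**
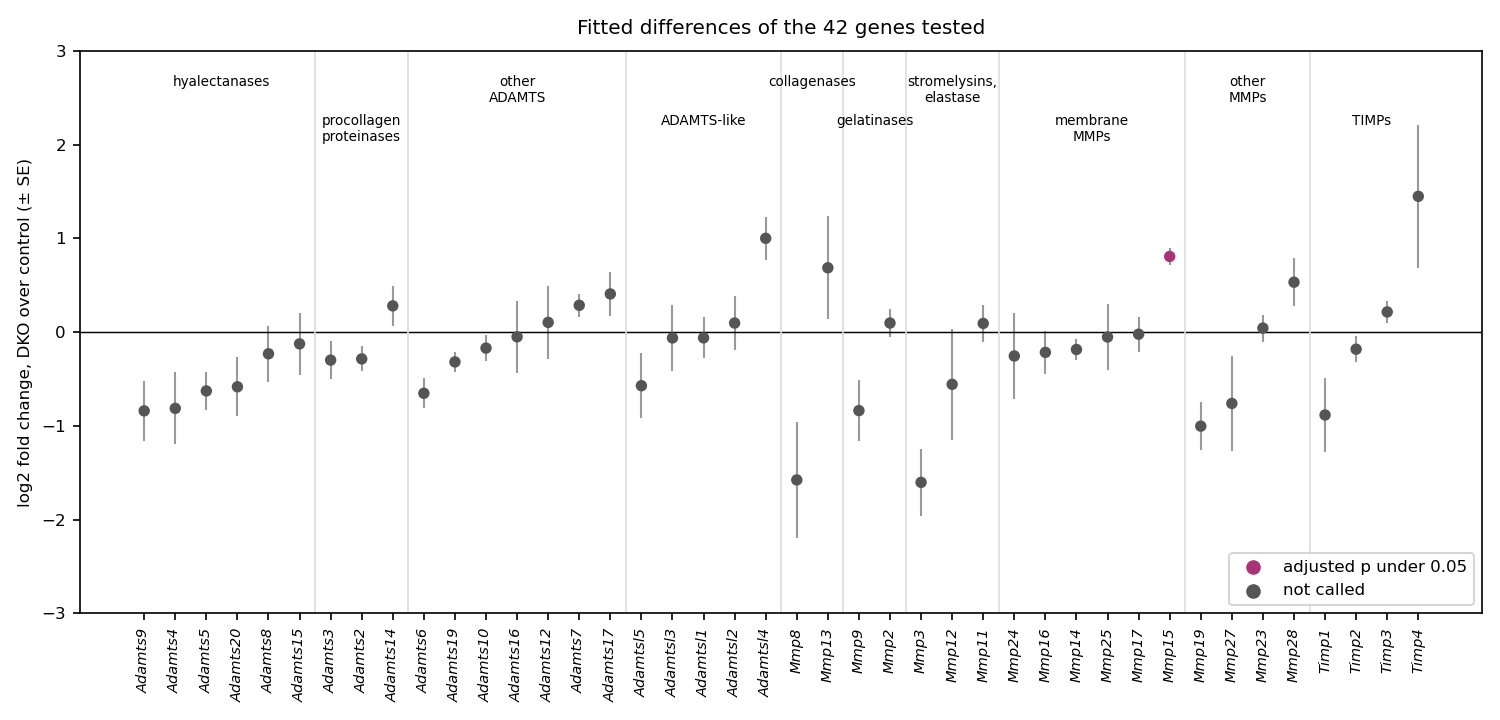
Fitted log2 fold change, DKO over control, with its standard error for the 42 members tested, grouped by role and ordered within each group (edgeR, 4 against 4 libraries). Mmp15 at 0.81 is the 1 point that passed the test, and all 6 hyalectanase genes lie below 0.

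Mmp15 (gene ID 17388, chromosome 8, 95352296 to 95374293, plus strand, GRCm38.p5) encodes MT2-MMP, a proteinase held in the cell membrane. It was at 26.1, 29.3, 31.2 and 31.1 CPM in controls 1 to 4 and at 54.1, 50.4, 49.4 and 52.03 CPM in DKO 1 to 4. Every DKO library lay above every control, with a gap wider than the range within either group. The rise was 1.75-fold (29.4 ± 2.39 to 51.5 ± 2.07 CPM, log2 fold change 0.81 ± 0.10 (SE), edgeR adjusted p = 0.0122). Within the high-numbered libraries it was 0.75 (adjusted p = 0.044, in a fit that called 0.982% of all genes), and without control 1 and DKO 2 it was 0.78 (adjusted p = 0.0364, with 0.576% called). The call ended without control 2 (adjusted p = 0.0723, with 0.0117% called) and without DKO 3 (0.0507, with 0.0525% called), while the fold change over the 8 fits without 1 library stayed at 0.77 to 0.84. Of the 6 marker genes of luteal and theca cells, 4 lay above 0 (46.9% of all genes did). The other 2 were Star (2107 ± 729 and 2098 ± 1426 CPM, -0.007) and Insl3 (-0.23). Hsd3b1 was called higher (1.26% of all genes were called), a call that held in 1 of 8 fits without 1 library. The summed level of the 6 was 7091 to 13039 CPM in controls and 13359 to 18110.4 in DKO, with Cyp11a1 the largest part. The 5 endothelial markers were all above 0 with 0 called by edgeR (median 0.39, 3 at an unadjusted p under 0.05, summed level 385 to 479 CPM and 387 to 584). The part of either list in the Mmp15 result was not tested.

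The promoter of Mmp15 is shown because it is the member that passed the test. It spans 250 bases before the RefSeq start site and 50 after it (GRCm38.p6, chr8:95352046-95352345, plus strand), and no letters are in capitals because none of the 5 motifs searched was found in this window.
Mmp15 promoter: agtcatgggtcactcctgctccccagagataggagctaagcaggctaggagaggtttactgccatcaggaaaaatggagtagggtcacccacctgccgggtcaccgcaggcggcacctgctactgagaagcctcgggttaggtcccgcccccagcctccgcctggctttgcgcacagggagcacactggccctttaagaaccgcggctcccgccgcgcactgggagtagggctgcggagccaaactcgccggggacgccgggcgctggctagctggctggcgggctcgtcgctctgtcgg
The motifs were searched on both strands. They were TGANTCA (AP-1 letters with any base allowed in the middle, a pattern that reads the same on either strand) and TGACGTCA (the cyclic AMP response element). Also searched were GTAAACA (FOXO factors, which insulin signalling restrains), CAAGGTCA (the NR5A receptors of steroid-producing cells) and the progesterone receptor element. Promoters were found for 35 of the 50 members, 38 in all, since some genes have more than 1 start. Of these 38, the AP-1 letters were in 8 (21.1%, beside 7.81% of all 32851 promoters), the FOXO letters in 3 (7.89%, beside 3.65%), the NR5A letters in 1 (2.63%, beside 1.56%) and the other motifs in 0. A match is a description of the letters and not a site.

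The genes of the ADAMTS hyalectanases, which cut versican and aggrecan, had fitted values below 0 without passing the test. All 6 (Adamts4, Adamts5, Adamts8, Adamts9, Adamts15 and Adamts20) were below 0 (53.1% of all genes were), with a median of -0.61. By edgeR or DESeq2 0 were called, and 2 had an unadjusted p under 0.05 in edgeR (15.4% of all genes did). Adamts15 was above 0 within the high-numbered libraries (0.35), and 5 of 6 genes were below 0 there, without control 1, without DKO 1, and without control 1 and DKO 2. Adamts9 (gene ID 101401, chromosome 6, 92772699 to 92944047, minus strand) was at 322, 335, 257 and 455 CPM in controls and 117, 126, 209.9 and 311 CPM in DKO. DKO 4 lay within the control range and DKO 1 and 2 lay far under it (log2 fold change -0.84 ± 0.32, adjusted p = 0.24). Within the high-numbered libraries the value was -0.40.

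Adamts4 showed the same layout of libraries. It was at 129, 197, 141 and 253 CPM in controls and 48.1, 72.1, 118 and 171 CPM in DKO (-0.81 ± 0.39, adjusted p = 0.367). DKO 1 and DKO 2, its lowest libraries, are low-numbered, and the difference of low-numbered from high-numbered libraries beside genotype was -0.98 (adjusted p = 0.041). Within the high-numbered libraries the genotype value was -0.43. Adamts5 (gene ID 23794, chromosome 16, 85858157 to 85901125) was at 42.3, 61.1, 49.7 and 78.5 CPM in controls and 28.0, 36.4, 39.2 and 46.4 CPM in DKO. The groups overlapped only where DKO 4 stood above control 1 (-0.63 ± 0.21, adjusted p = 0.175, and -0.54 within the high-numbered libraries). Adamts8, Adamts15 and Adamts20 were at 0.406 to 12.9 CPM, with fold changes of -0.23 ± 0.30, -0.12 ± 0.33 and -0.58 ± 0.31. Those of Adamts8 and Adamts15 were smaller than their SE. Adamts1, which lies beside Adamts5 on chromosome 16 and is left out of the members, was at 1137, 2672, 2798 and 2961 CPM in controls and 358, 789.6, 1107 and 1635 in DKO (-1.30 ± 0.46, adjusted p = 0.212). DESeq2 (adjusted p = 0.0224) and limma-voom with quality weights (0.0384) called it lower. Versican itself is their best-known substrate in the follicle, and Vcan fell from 1602, 2385, 2310.3 and 2375 CPM to 473, 668, 964 and 1097 (-1.44 ± 0.26, adjusted p = 0.035). The call of Vcan held without control 1, control 3 or DKO 4 and ended in the other 5 fits without 1 library (adjusted p up to 0.137), while its fold change stayed at -1.63 to -1.25.

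A noncoding gene inside Adamts9 was called lower. A730049H05Rik (gene ID 74516, chromosome 6, 92816578 to 92847176) lies on the opposite strand, and 66 of the 8571 exon bases of Adamts9 face its exons. It was looked at after the values of the members were seen. It was at 537, 433, 414 and 369.5 CPM in controls and 48.4, 84.5, 142 and 187 CPM in DKO, and the groups lay well apart (-1.92 ± 0.37, adjusted p = 0.0498). Reads were counted by strand, so its counts are kept separate from those of Adamts9. In both genes DKO 1 and 2 were lowest and DKO 4 highest among DKO, but control 1, the highest control for the noncoding gene, was not the highest for Adamts9. The call of A730049H05Rik held in 2 of 8 fits without 1 library (without DKO 1 or DKO 4) and ended in the other 6 (adjusted p up to 0.178). It also ended without control 1 and DKO 2 (0.141), and held within the high-numbered libraries (-1.28, adjusted p = 0.0249).

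The procollagen proteinase genes, whose enzymes trim the amino ends of fibrillar procollagens, had 0 calls by edgeR and by DESeq2 among 3, and 0 at an unadjusted p under 0.05. Adamts2, the highest ADAMTS member per kb over all libraries, was at 246 to 344 CPM in controls and 231 to 293 in DKO (-0.29 ± 0.13, adjusted p = 0.353). Adamts3 was at 9.41 ± 1.66 and 7.65 ± 1.62 CPM and Adamts14 at 3.49 ± 0.312 and 4.24 ± 0.728.

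Among the other ADAMTS proteinases, 7 of 9 were tested, 3 above and 4 below 0. Adamts6 (gene ID 108154, chromosome 13, 104287348 to 104496695), a regulator of the fibrillin matrix, was at 23.6, 38.01, 26.1 and 28.2 CPM in controls and 19.6, 19.4, 19.3 and 15.4 CPM in DKO. The groups did not overlap, and the test was missed (-0.65 ± 0.16, adjusted p = 0.0867). Within the high-numbered libraries the value was -0.81, and DESeq2 called it lower (adjusted p = 0.0066). Adamts19 was at 47.1, 52.9, 39.4 and 44.6 CPM in controls and 38.2, 36.3, 38.1 and 35.04 CPM in DKO. Control 3 stood just above the highest DKO library (-0.32 ± 0.11, adjusted p = 0.183). Adamts7, whose enzyme cuts cartilage oligomeric matrix protein, was at 16.6, 21.96, 20.7 and 22.9 CPM in controls and 25.9, 25.0, 26.5 and 22.9 CPM in DKO. DKO 4 touched the control range (0.29 ± 0.12, adjusted p = 0.307). Adamts10, which binds fibrillin, was at 146 ± 23.2 and 129 ± 16.8 CPM, and Adamts12, Adamts16 and Adamts17 differed by 0.10, -0.05 and 0.41.

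Of the 5 ADAMTS-like genes, Adamtsl4 was the 1 member with separated groups. Adamtsl4 (gene ID 229595, chromosome 3, 95676201 to 95688129) encodes a protein that promotes fibrillin microfibril assembly and anchors the lens of the eye. It was at 15.3, 17.8, 30.7 and 17.9 CPM in controls and 39.1, 32.2, 53.3 and 39.2 CPM in DKO. Control 3 reached close to DKO 2, the lowest DKO library, and no value crossed (1.00 ± 0.23, adjusted p = 0.0728). With the title number as a block the difference passed the test (1.12 ± 0.20, adjusted p = 0.0263, in a fit that called 3.12% of all genes). DESeq2 called it higher too (adjusted p = 0.00171). Adamtsl2, another microfibril protein, was at 34.2 ± 10.4 and 36.6 ± 12.7 CPM, and Adamtsl1, Adamtsl3 and Adamtsl5 lay at 0.214 to 13.1 CPM with fold changes of -0.06, -0.06 and -0.57.

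**Figure D3:**
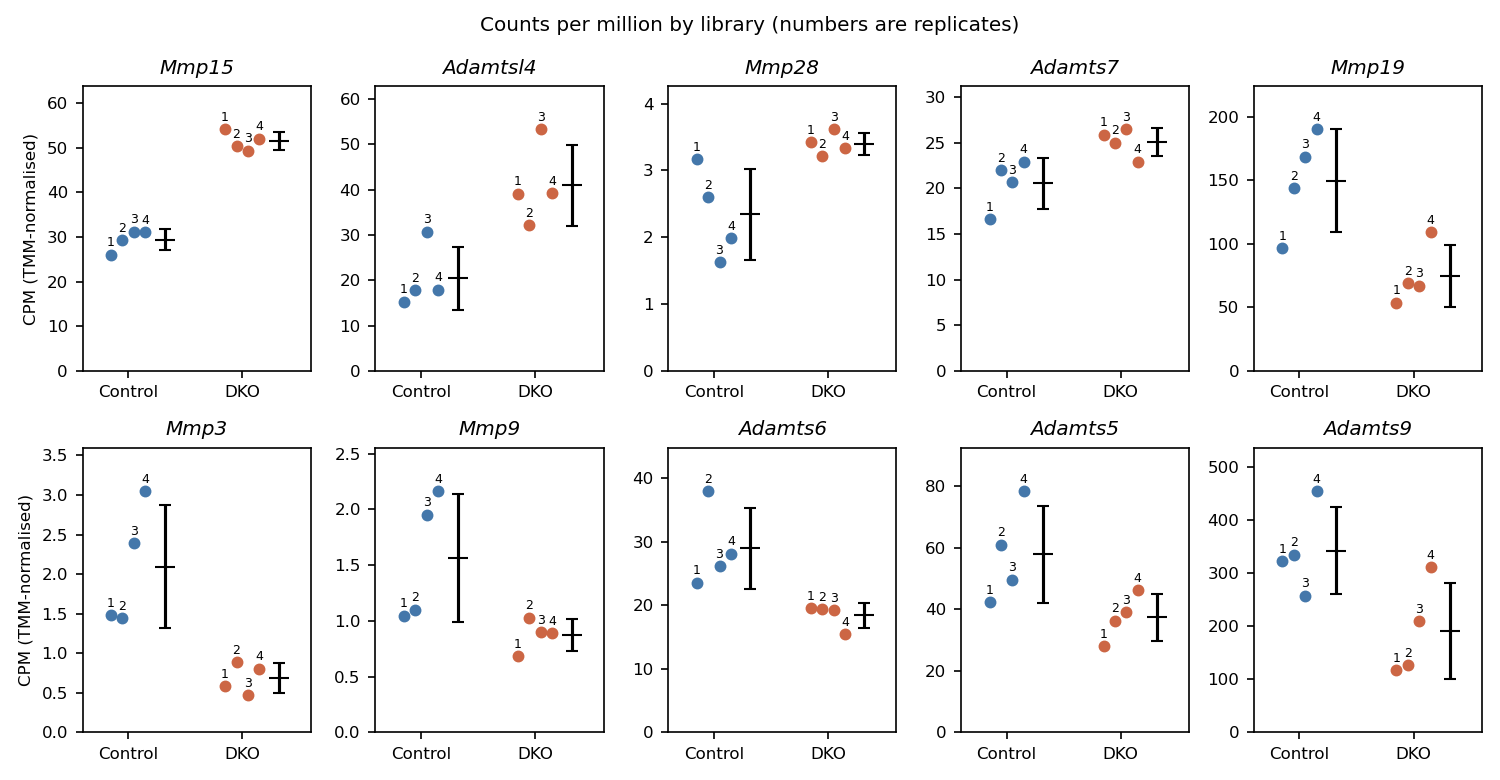
Normalised CPM of 10 members in each library, with the replicate number above each point and the mean ± SD of the group beside it (n = 4 each). The groups do not overlap in Mmp15, Adamtsl4, Mmp28, Mmp3, Mmp9 and Adamts6, while in Mmp19, Adamts5 and Adamts9 the highest DKO library lies within the control range and in Adamts7 DKO 4 meets control 4.

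The MMP genes were described by where they lie, since 10 of the 23 form a cluster on chromosome 9 (7272514 to 7699585). These are Mmp13, Mmp12, Mmp1b, Mmp3, Mmp1a, Mmp10, Mmp8, Mmp27, Mmp20 and Mmp7, which include the secreted collagenases, stromelysins and matrilysin. All 10 were low, at a mean of 0 to 0.771 CPM per kb and at most 3.05 CPM in a library, while the 13 other MMP genes ranged from 0.00374 to 88.9 CPM per kb. Low levels were thus also seen outside the cluster, as in Mmp9 (0.359), Mmp25 (0.236), Mmp24 (0.206) and Mmp21 (0.00374 CPM per kb). Of the 5 cluster genes tested, 4 were below 0 and 1, Mmp13, was above. The cluster also shared letters in its promoters. The AP-1 letters TGANTCA were in 8 of the 12 promoters of these 10 genes, belonging to 8 genes. They were in 0 of the 26 promoters of the 25 other members with a sequence. They are shown here for these 8 genes, 5′ to 3′ on the strand of the gene, with the match in capitals. Mmp3 is given with its whole promoter and the others with 20 bases on either side (RefSeq, GRCm38.p6).
Mmp3, chr9:7445572-7445871 (+ strand): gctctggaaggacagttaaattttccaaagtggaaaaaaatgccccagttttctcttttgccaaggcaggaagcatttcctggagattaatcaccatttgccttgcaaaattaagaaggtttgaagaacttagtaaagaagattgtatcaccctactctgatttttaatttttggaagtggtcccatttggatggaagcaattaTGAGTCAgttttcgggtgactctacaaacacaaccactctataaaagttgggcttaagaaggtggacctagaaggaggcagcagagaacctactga
Mmp13, chr9:7272459-7272505 (+ strand): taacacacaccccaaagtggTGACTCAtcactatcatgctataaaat
Mmp12, chr9:7347310-7347356 (+ strand): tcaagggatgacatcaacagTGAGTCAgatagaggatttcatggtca
Mmp1b, chr9:7388093-7388139 (- strand): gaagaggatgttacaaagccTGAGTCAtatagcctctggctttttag
Mmp1a, chr9:7464048-7464094 (+ strand): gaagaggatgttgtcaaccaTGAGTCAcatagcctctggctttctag
Mmp10, chr9:7502259-7502305 (+ strand): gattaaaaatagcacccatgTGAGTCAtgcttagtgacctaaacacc
Mmp20, chr9:7628116-7628162 (+ strand): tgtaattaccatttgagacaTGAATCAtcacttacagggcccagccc
Mmp7, chr9:7692007-7692053 (+ strand): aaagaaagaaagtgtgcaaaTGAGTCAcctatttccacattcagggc
The matches began 35 to 95 bases before the start site, and all had C or G in the middle except that of Mmp20 (TGAATCA). They occurred in Mmp1a and Mmp20, which had no counts, as well as in Mmp3.

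Mmp3 (gene ID 17392, chromosome 9, 7445822 to 7455975) encodes stromelysin 1, which cuts proteoglycans and activates other MMPs. It was at 1.48, 1.44, 2.39 and 3.05 CPM in controls and 0.584, 0.883, 0.475 and 0.804 CPM in DKO. All controls lay above all DKO libraries, on 51 to 100 counts against 18 to 30 (-1.60 ± 0.35, adjusted p = 0.0642). Within the high-numbered libraries the value was -1.82, and DESeq2 called it lower (adjusted p = 0.00179). Mmp8, the neutrophil collagenase gene, was at 2.23, 0.707, 1.57 and 1.16 CPM in controls and 0.203, 1.21, 0.237 and 0.258 CPM in DKO (-1.58 ± 0.62, adjusted p = 0.249). DKO 2 was the 1 DKO library within the control range, and without control 1 and DKO 2 the difference was -2.27 (adjusted p = 0.0572). Mmp13, a broad collagenase gene, lay at 0.0305 to 0.422 CPM (0.69 ± 0.55), and Mmp12, the macrophage elastase gene, at 0.11 to 1.29 CPM (-0.56 ± 0.59). Mmp27 was at 2 to 15 counts in a library (-0.76 ± 0.51, adjusted p = 0.535).

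Mmp9, whose gelatinase is stored in neutrophils and made by many cells, was at 1.05, 1.102, 1.95 and 2.17 CPM in controls and 0.685, 1.03, 0.897 and 0.89 CPM in DKO. The groups did not overlap, but DKO 2 and controls 1 and 2 were close (-0.84 ± 0.33, adjusted p = 0.251). Mmp25, a membrane MMP of neutrophils, was at 0.899 ± 0.287 and 0.867 ± 0.315 CPM. Of the 9 marker genes of neutrophils, 6 could be tested. All 6 were below 0, as were Mmp8 and Mmp9 (53.1% of all genes were). Of the 6, 4 had an unadjusted p under 0.05 (15.4% of all genes did), and 0 were called by edgeR. Camp was close between groups, at 3.59 ± 2.39 CPM in controls and 3.52 ± 1.87 in DKO (-0.03 ± 0.51). S100a9 was at 1.101 to 10.9 CPM in controls and 0.432 to 1.03 in DKO, while Elane, also on this list, was at 0 to 0.0305 CPM in all libraries. The summed list was at 8.48 to 89.4 CPM in controls and 7.94 to 36.2 in DKO, with Ltf alone at 78.9 CPM in control 1 and 29.1 in DKO 2. Their part in the values of Mmp8 and Mmp9 was not tested. The 7 macrophage markers summed to 181 to 242 CPM in controls and 158 to 214 in DKO.

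Mmp2, by contrast with the cluster, was abundant and close between genotypes. It was at 108, 158, 132 and 154 CPM in controls and 155, 122, 140 and 175 CPM in DKO, and the groups overlapped over most of their range (0.10 ± 0.15, adjusted p = 0.814). Its activator gene Mmp14 was at 294, 321, 376 and 364 CPM in controls and 303, 286, 287 and 317 CPM in DKO (-0.18 ± 0.11, adjusted p = 0.469). Of the 6 membrane MMP genes, Mmp15 rose and the other 5, Mmp14, Mmp16, Mmp17, Mmp24 and Mmp25, lay between -0.25 and -0.02 with 0 calls by edgeR or DESeq2 and 0 at an unadjusted p under 0.05. The 6 marker genes of stroma summed to 1240 to 1686 CPM in controls and 1284 to 1693 in DKO.

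Mmp19 (gene ID 58223, chromosome 10, 128790910 to 128800827) encodes a secreted MMP of basement membrane and matrix. It was at 96.3, 144, 169 and 189.97 CPM in controls and 53.6, 68.8, 67.0 and 109 CPM in DKO. DKO 4 lay above control 1 and all other DKO libraries lay below every control (-1.003 ± 0.25, adjusted p = 0.101). The difference passed the test with the title number as a block (-0.83 ± 0.17, adjusted p = 0.0401) and without control 1 (-1.15, 0.0415, with 1.51% of all genes called), and DESeq2 called it lower (0.00355). Mmp28, known as epilysin, was at 3.17, 2.60, 1.62 and 1.98 CPM in controls and 3.43, 3.21, 3.61 and 3.33 CPM in DKO. The groups did not overlap, with control 1 just under DKO 2 (0.53 ± 0.26, adjusted p = 0.367). Mmp23 was at 44.9 ± 6.87 and 46.3 ± 7.71 CPM. It overlaps Mib2 on the same strand, so reads on shared exons could not be assigned to either gene. Mmp11 was at 240, 215, 176 and 176 CPM in controls and 299, 231, 166 and 165 CPM in DKO (0.09 ± 0.20, adjusted p = 0.871).

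The TIMP genes had 0 calls by edgeR and DESeq2 and 0 at an unadjusted p under 0.05, with 2 above and 2 below 0. Timp1 (gene ID 21857, chromosome X, 20870166 to 20874737), an inhibitor of most MMPs, was at 342, 634, 1277 and 781 CPM in controls and 227, 426, 419 and 572 CPM in DKO. Control 1 lay within the DKO range and the other 3 controls above it (-0.88 ± 0.40, adjusted p = 0.334, and -0.51 without control 3). Timp2, which inhibits MMPs and helps Mmp14 to activate Mmp2, was at 242, 233, 176 and 279 CPM in controls and 224, 201.3, 183 and 212 CPM in DKO (-0.18 ± 0.14, adjusted p = 0.606). Timp3, which binds to matrix and also inhibits ADAMTS enzymes, was at 248, 227, 238 and 292 CPM in controls and 303, 272, 262 and 329.8 CPM in DKO (0.22 ± 0.12, adjusted p = 0.429). In both genes the groups overlapped. Timp1, Timp3 and Timp4 lie inside the synapsin genes Syn1, Syn3 and Syn2 on the opposite strand, and these held 978, 554 and 667 counts over all libraries. Timp2 overlaps Cep295nl on the same strand, which held 199 counts over all libraries. Whether the exons of Timp2 and Cep295nl overlap was not examined.

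Timp4 followed the title numbers more than genotype. It was at 11.7, 1.64, 3.27 and 2.29 CPM in controls and 20.9, 21.2, 5.49 and 4.13 CPM in DKO (gene ID 110595, chromosome 6, 115245616 to 115252303). Control 1, DKO 1 and DKO 2, the low-numbered libraries, were the 3 highest, and within the low-numbered and within the high-numbered libraries DKO lay above the controls. The low-numbered libraries were 2.19 above the high-numbered ones on the log2 scale beside genotype (edgeR adjusted p = 0.00444). The genotype difference was 1.45 ± 0.76 with no block (adjusted p = 0.418), 0.94 with the block (0.0519) and 1.02 within the high-numbered libraries. Of the 42 members tested, Timp4, Adamts4 and Mmp11 passed the test of the title numbers (7.14%, beside 8.16% of all genes), and Mmp11 was 0.53 higher in the low-numbered libraries (adjusted p = 0.0405). What the title numbers stand for, such as age, litter or day, was not tested. Nor was the part of the oviduct RNA of control 1 and DKO 2 in these results.

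**Figure D4:**
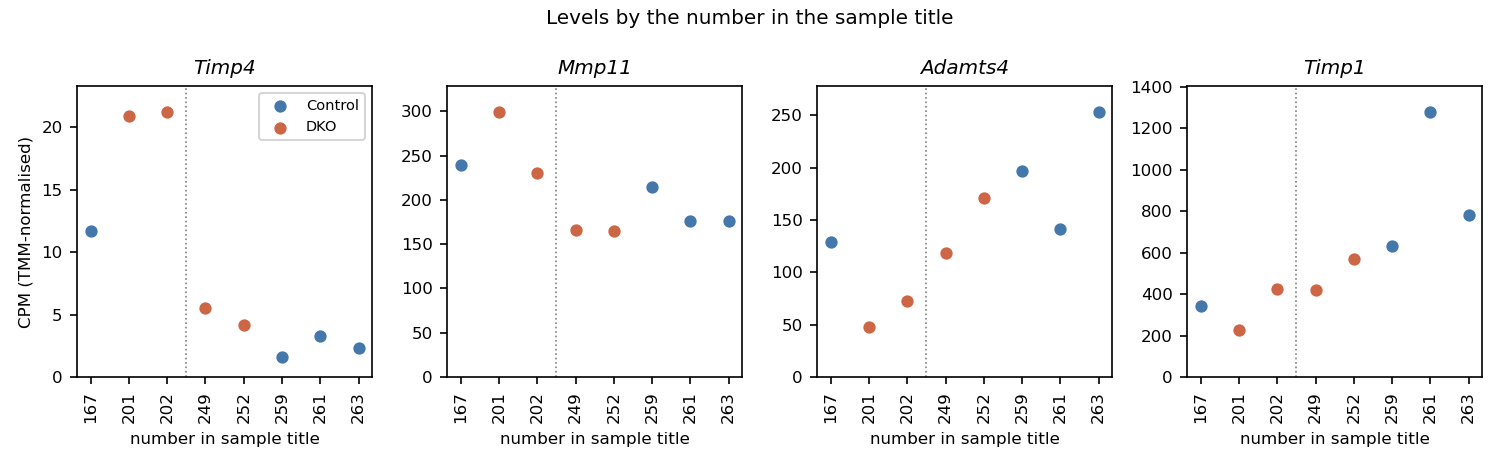
Normalised CPM of Timp4, Mmp11, Adamts4 and Timp1 against the number in the sample title, in increasing order and not to scale. The dotted line separates the 3 low-numbered from the 5 high-numbered libraries, and Timp4 lies at 11.7 to 21.2 on its left and at 1.64 to 5.49 on its right.

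The balance of inhibitor to MMP transcripts varied widely between libraries. The summed TIMP level per kb over the summed MMP level per kb was 1.87, 2.79, 5.15 and 3.35 in controls and 1.27, 2.29, 2.39 and 2.82 in DKO. Controls 1 and 2 lay within the DKO range and controls 3 and 4 above it. The summed MMP level was 293 ± 14.0 CPM per kb in controls and 273 ± 28.3 in DKO, and the summed ADAMTS proteinase level, without Adamts1, 187 ± 32.4 and 133 ± 24.9. With Timp1 left out of the sum the ratio was 0.34 to 0.463 in controls and 0.444 to 0.479 in DKO, so the spread of the ratio lay mostly in Timp1.

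Mmp7 and Mmp10 were high in the libraries that held oviduct RNA. Mmp7, the matrilysin gene of epithelia, was at 1.91, 0.226, 0 and 0.366 CPM in controls and 0.0254, 0.854, 0.0527 and 0.23 CPM in DKO. Control 1 with 71 counts and DKO 2 with 29 were the highest of their groups, as they were for Ovgp1 and for the cilia gene Foxj1 (37.6 and 34.7 CPM, against 0.302 to 2.898 in the other 6). Mmp10, stromelysin 2, had 13 counts in control 1, 7 in DKO 2 and 0 to 4 in the others. Neither gene passed the filter on low counts, and neither was called between genotypes when all 48 members with counts were fitted without it. Whether oviduct tissue supplied these reads was not tested.

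**Figure D5:**
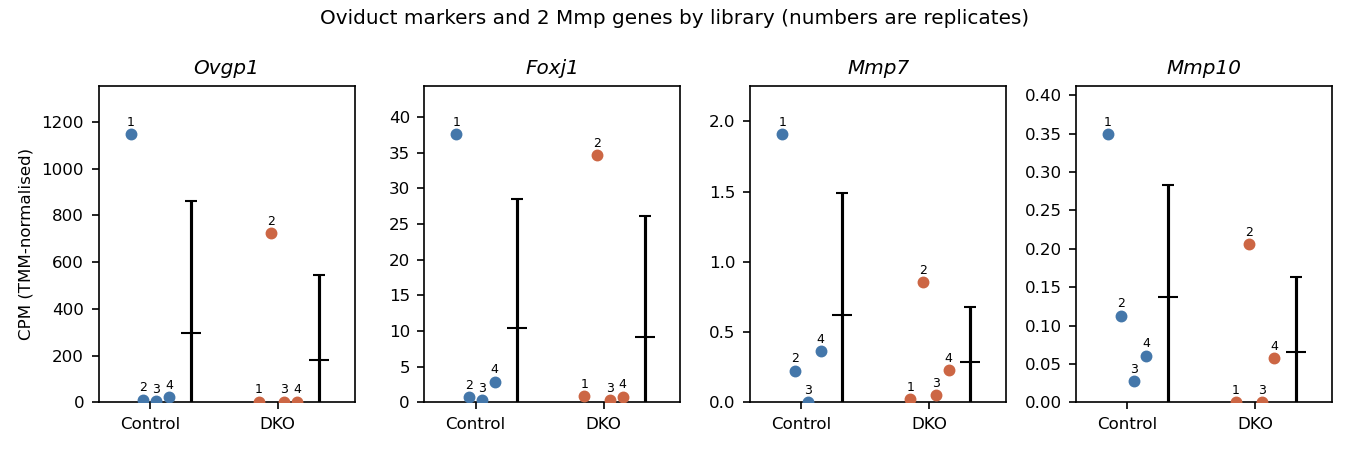
Normalised CPM of the oviduct markers Ovgp1 and Foxj1 and of Mmp7 and Mmp10 in each library, with the replicate number above each point and the mean ± SD of the group beside it (n = 4 each). Control 1 and DKO 2 are the highest library of their group in all 4 panels.

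Lists of genes around these enzymes were counted in the same fit. Of 21 tested activators, inhibitors and uptake receptors, 1 rose, 0 fell and 18 lay below 0 (median -0.38), with 13 at an unadjusted p under 0.05. Over all genes tested, 1.26% were called, 15.4% had an unadjusted p under 0.05, 53.1% lay below 0 and the median was -0.021, which is the background of this and the next lists. The rise was in Pcolce, an enhancer of procollagen C-proteinase, at 284, 253, 342 and 241 CPM in controls and 522, 459.5, 433 and 419 CPM in DKO (0.71 ± 0.13, adjusted p = 0.0425). Its call held in 1 of 8 fits without 1 library, that without control 3, and ended in the other 7 (adjusted p up to 0.178, fold change 0.64 to 0.82). The convertase genes Pcsk5 (622 ± 17.3 and 441 ± 66.4 CPM, adjusted p = 0.0844), Pcsk6 (58.5 ± 15.2 and 37.2 ± 0.782 CPM, 0.0919) and Furin (299 ± 49.1 and 207 ± 35.4 CPM, 0.142), whose enzymes cut proteinase precursors, missed the test. So did Reck, a membrane inhibitor of MMPs, at 28.9 ± 4.33 and 20.6 ± 1.81 CPM (adjusted p = 0.112). Pcsk7, also a convertase gene of this list, was closer between groups, at 48.8 ± 3.48 and 44.8 ± 2.99 CPM (-0.12 ± 0.09, adjusted p = 0.604). A2m lay above 0 (0.88 ± 0.32, adjusted p = 0.219). In this list 4 genes, Pcsk5, Pcsk6, Reck and Plau, had groups that did not overlap with the controls higher (3.54% of all genes did). In 1 gene, Pcolce, the groups did not overlap with DKO higher (5.7% of all genes).

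Of 14 tested ADAM and astacin proteinases, 4 lay above and 10 below 0 (median -0.17), and 0 were called by edgeR (7 at an unadjusted p under 0.05). Tll2, of the tolloid family of astacin proteinases, was at 0.672, 0.622, 2.23 and 0.61 CPM in controls and 3.78, 6.54, 4.46 and 4.25 CPM in DKO (2.20 ± 0.46, adjusted p = 0.0552). Of 25 tested matrix substrates and partners, 1 rose and 1 fell, with a median of -0.072. Ltbp1, which ties latent TGF beta to microfibrils, rose from 235, 223, 340.02 and 219 CPM to 689, 653, 379 and 449 CPM (1.09 ± 0.22, adjusted p = 0.049), and Vcan, given above, fell. The call of Ltbp1 also held without control 3 and ended in the other 7 fits (adjusted p up to 0.186), and within the high-numbered libraries the difference was 0.69 (adjusted p = 0.234). The lowest DKO values of Ltbp1 were those of the high-numbered DKO 3 and DKO 4, and the highest control reached 340.02 against 379 in DKO 3. The 5 smooth muscle markers were all below 0 with 0 called, and summed to 1874 to 3485 CPM in controls and 1430 to 2399 in DKO, a measure whose part in these lists was not tested.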

How the data were processed

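Each of the 8 files the authors deposited holds raw counts for 1 library. Per the file headers, featureCounts (Subread 1.5.2) summed reads on exons by gene ID, with the reverse-stranded setting and the RefSeq annotation of GRCm38.p5. The submitters' processing notes also name Trimmomatic, STAR 2.4.2a and edgeR 3.12.0, without saying for which step. Per the labels' protocols a stranded kit for messenger RNA was used. Groups came from the sample descriptions.

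Symbols came from a RefSeq table of GRCm38.p6 (96.9% of IDs matched). Genes kept by filterByExpr (16870) were tested with edgeR 4.0.16 (R 4.3.3): TMM factors of 0.943 to 1.06, robust quasi-likelihood F-tests, two-sided, Benjamini-Hochberg adjustment over all genes, no covariate. The SE is the fold change divided by the square root of F. The script was tested on simulated data of 4 against 4 libraries, with changes placed in genes at 5 CPM or more. It recovered 19.4% of 1.5-fold, 71.1% of 2-fold and 96.5% of 4-fold changes, and 7.67% of its calls were false. A missed test is therefore no sign of equal levels. Libraries of a group differed by more than sampling noise (reduced chi-square of 22.9 to 129).

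Members and lists were chosen with earlier results of these data known. Named members were those called, those with an unadjusted p under 0.05, those at 1 CPM or more with groups that do not overlap, the 6 highest per kb and all TIMPs, and other genes given values lead a list or were chosen after their values were seen. A planned search of protein sequences is not reported here. Alternatives covered scaling, filters, DESeq2 1.42.0, limma 3.58.1, blocks and left-out libraries, and the fit without control 1 and DKO 2 was chosen after seeing the data.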

Additional observations from a re-analysis of the deposited data

Results flagged for a closer look

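In the 22 genes examined (44 groups of 4 libraries), 6 groups had 1 library far from the other 3 by Dixon's ratio, where chance gives about 1 in 20 groups. Timp4 was at 11.7 CPM in control 1, with the next control at 3.27. Mmp8 was at 1.21 CPM in DKO 2, with the next DKO library at 0.258. Adamts6 was at 15.4 CPM in DKO 4, below the next at 19.3. Adamtsl4 was at 30.7 CPM in control 3, above the next at 17.9. Adamts1 was at 1137 CPM in control 1, below the next at 2672, and Igf1r was at 247 CPM in DKO 4, above the next at 205. Control 1 and DKO 2 are the libraries with the most oviduct RNA.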

How the results depend on the processing

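Over all genes, the 212 calls became 1107 with DESeq2, 1651 with limma-voom and sample quality weights, 526 with the title number as a block, 97 without control 1 and DKO 2, and 2 to 506 when 1 library was left out. Members called were 5 with DESeq2, 8 with quality weights (2 higher, 6 lower), 3 with the title number as a block, and 0 to 2 when 1 library was left out (0 without control 2 or DKO 3, 2 without control 1 or control 3). The cause of these shifts was not tested. The members' median of -0.18 ranged from -0.29 (without control 3) to -0.12 when 1 library was left out. Mmp15 was called in 19 of 21 alternatives, and its fold change ran from 0.75 to 0.84 in them. Adamtsl4 and Mmp19 were each called in 5, Mmp3, Adamts5 and Adamts6 in 2. All 12 members with an unadjusted p under 0.05 or separated groups kept their direction in all 21, which for separated groups is no sign of stability. Same-numbered libraries correlated at 0.156, -0.359, 0.312 and 0.468 in their deviations from the group means. Libraries with different numbers correlated at -0.475 to 0.638, the highest being control 1 with DKO 2, both high in oviduct markers. These values cannot decide whether the replicate numbers pair the samples. The replicate block gave 743 calls over all genes and 4 among members (Mmp15, Adamtsl4, Mmp19 and Adamts5). Depth limits the chromosome 9 genes, which had at most 100 counts in a library.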

Other observations

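The members' median spread within a group was above that of all genes. The median coefficient of variation of CPM over the 4 controls was 28.2% for the 42 members tested and 19.0% for all genes tested, and over the 4 DKO libraries it was 21.4% and 15.3%. Timp4 had the widest spread among controls (99.4%), followed by Mmp13 (75.7%), Mmp12 (65.02%) and Timp1 (51.5%). In DKO, Mmp8 had a coefficient of variation of 102%. Mmp13 and Mmp12 lay at under 1.3 CPM, where counting adds to the spread, while Timp1 had 8956 to 46443 counts per library.

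Adam8, a membrane proteinase gene of leukocytes and other cells, was at 62.7, 45.95, 40.7 and 33.9 CPM in controls and 7.59, 33.7, 15.6 and 12.9 CPM in DKO. The groups did not overlap, with DKO 2 just under control 4 (-1.40 ± 0.42, edgeR adjusted p = 0.155). Adamdec1, a proteinase gene of macrophages and dendritic cells, was at 0.994, 0.198, 0.11 and 0.397 CPM in controls and 1.73, 1.94, 3.61 and 5.395 CPM in DKO (2.89 ± 0.65, adjusted p = 0.0686).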
